A study of Homo sapiens with 6 samples.

Results

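The NADPH oxidase genes on the array were NOX1, NOX3, NOX4, NOX5, DUOX1 and DUOX2, which encode catalytic subunits, CYBB, which encodes the catalytic subunit NOX2, and CYBA, NOXO1 and NOXA1, which encode partners of them. All features whose gene name was one of these 10 symbols or a synonym were taken, which gave 21 of the 45033 features, and every one of them is reported. A feature is a row of the array, summarised from several probes of 1 transcript record and named here by that record. The genes were selected on measured values: NOX1 had been seen among the features with the largest decreases in this same comparison. The differences of the 10 genes are therefore given as a description with their error and without a test.

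NADPH oxidases are membrane enzymes that carry electrons from NADPH across the membrane to oxygen and release superoxide or hydrogen peroxide. NOX1, NOX2, NOX3 and NOX4 form a complex with p22phox, the CYBA product. NOX1 needs the organiser NOXO1, the activator NOXA1 and the GTPase Rac in addition, whereas NOX5 and the DUOX enzymes are controlled by calcium. NOX1 is best known from colon epithelium, NOX2 from the respiratory burst of phagocytes, and DUOX2 with its maturation factor DUOXA2 from thyroid and mucosal surfaces.

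The cells were HCC-LM3, an established human hepatocellular carcinoma line of high metastatic potential. They carried a lentivirus with either a control shRNA (shNon) or an shRNA against ASPP2 (shASPP2), the p53-binding protein encoded by TP53BP2, and total RNA was collected 1 week after infection. Each group had 3 samples, labelled as separate cultures, and each sample was hybridised to its own 1-colour array, so that both groups shared the line, the vector type and the time. The number of arrays limits the precision of every difference, and an exact two-sided permutation test of 3 against 3 arrays cannot give a p below 0.1.

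Array medians lay between 111.3 and 122.2 intensity units. A group was called dim for a feature where its mean was under 2 times that group's mean of the array's random probes, that is under 65.1 in shNon and under 61.2 in shASPP2, and between 58.9% and 60.9% of features lay above that limit on each array. TP53BP2 read 332.0, 488.4 and 452.4 on the shNon arrays and 228.0, 215.9 and 147.3 on the shASPP2 arrays in 1 feature, and 288.6, 345.7 and 284.7 against 131.8, 91.9 and 126.1 in the other. The groups did not overlap in either feature, and the shASPP2 mean was 46.2% and 37.8% of shNon on the log2 scale, with adjusted p = 0.203 and 0.0991 in limma. Of the hepatocyte and hepatoma markers 6 of 10 lay above the limit in at least 1 group, namely KRT8, KRT18, HNF4A, TF, ALB and AFP. The summed level of all 10, dim ones included, was 18179.1 to 19934.4 in shNon and 23808.0 to 28517.4 in shASPP2. ALB and AFP were near the limit, with means of 86.5 and 68.4 in the brightest ALB record and of 43.6 and 70.3 for AFP in shNon and shASPP2, and APOA1, TTR, SERPINA1 and GPC3 were dim in both groups. Of 7 endothelial markers PECAM1 and CDH5 were above the limit, and VWF, KDR, TEK, TIE1 and ROBO4 were dim. The summed level of all 7 was 2118.6 to 2194.8 in shNon and 1066.1 to 1302.4 in shASPP2. Of 6 stellate and fibroblast markers COL1A1, DCN and LUM were above the limit. The summed level of all 6, dim ones included, was 461.4 to 510.6 in shNon and 532.1 to 655.0 in shASPP2. All samples were cultures of the HCC-LM3 line. The source of these marker readings and their bearing on the oxidase readings were not tested.

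Of the 10 oxidase genes 5 had a feature above the limit in at least 1 group, namely NOX1, CYBA, DUOX1, DUOX2 and, narrowly, NOXO1. NOX3, NOX4, NOX5, NOXA1 and CYBB were dim in both groups in every feature. NOX1 was above the limit in shNon and under it in shASPP2, DUOX1 and DUOX2 were lower in shASPP2 by less, and CYBA was above the limit on all 6 arrays. Over all features tested 0.138% passed an adjusted p of 0.05 in limma and 0.0844% did so with a lower level in shASPP2. Among the 21 oxidase features 3 passed, all of NOX1 and all lower, and nothing is read from that count because this comparison chose the genes.

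**Figure D1:**
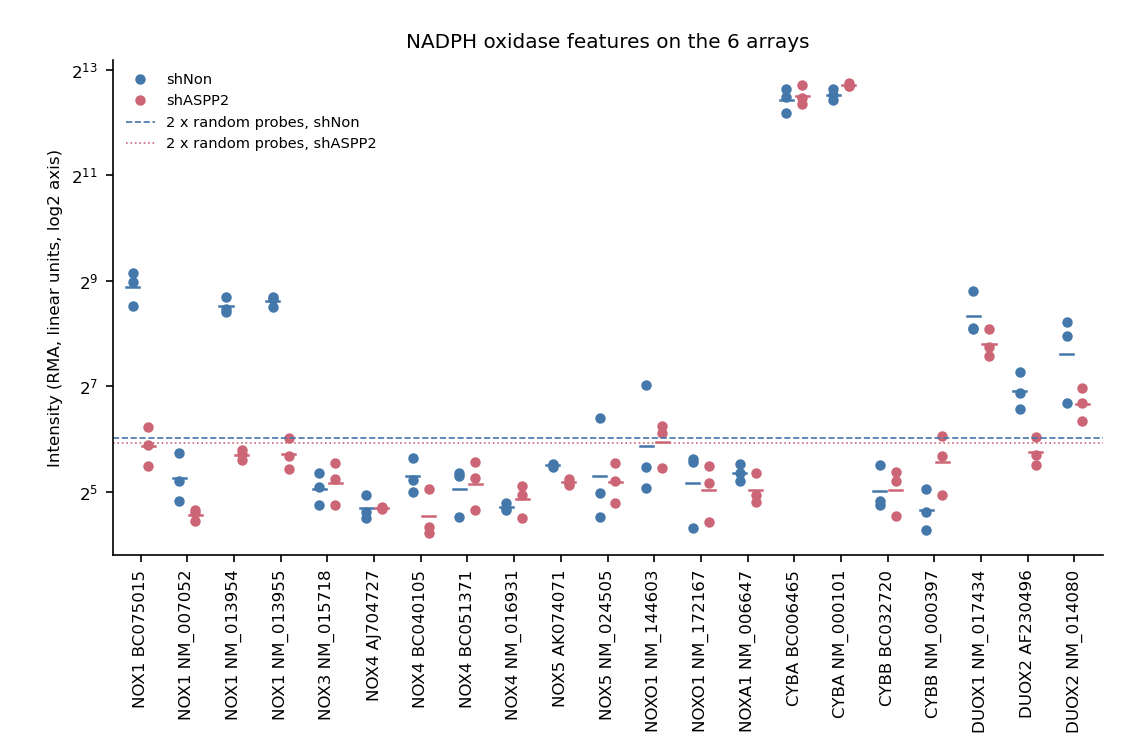
Intensity of each of the 21 oxidase features on the 6 arrays (linear RMA units on a log2 axis; blue points shNon, red points shASPP2, short bars the mean of log2 values of 3 arrays, broken lines 2 times the random probes of each group). The shNon arrays of 3 NOX1 features lie between 340.6 and 563.9 and the shASPP2 arrays between 43.5 and 75.0, while the CYBA features lie between 4618.1 and 6909.2 in both groups.

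The stretch just before the start of 3 of these genes is shown because NOX1, DUOX2 and CYBA are the members with a large, a moderate and a small difference, and their starts differ in base composition. The sequences are the 250 bases upstream of the annotated start from RefSeq on GRCh38.p14, each read on the minus strand, at chrX:100874360-100874609 for NOX1, chr15:45114173-45114422 for DUOX2 and chr16:88651054-88651303 for CYBA. Capitals mark GATAA or GATAG on either strand in NOX1, TTTAT and TATAAA (on the opposite strand) where they overlap in DUOX2, and GGGCGG on either strand in CYBA.
NOX1: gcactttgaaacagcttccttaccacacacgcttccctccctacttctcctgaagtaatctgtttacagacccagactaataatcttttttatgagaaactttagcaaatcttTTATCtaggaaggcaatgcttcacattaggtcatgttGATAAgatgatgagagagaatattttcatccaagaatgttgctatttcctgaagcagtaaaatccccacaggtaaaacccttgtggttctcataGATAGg
DUOX2: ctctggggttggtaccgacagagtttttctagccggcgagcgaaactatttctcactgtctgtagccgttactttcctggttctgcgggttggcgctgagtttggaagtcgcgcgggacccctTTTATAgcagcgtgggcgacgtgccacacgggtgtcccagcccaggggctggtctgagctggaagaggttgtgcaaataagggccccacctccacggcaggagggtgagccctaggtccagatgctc
CYBA: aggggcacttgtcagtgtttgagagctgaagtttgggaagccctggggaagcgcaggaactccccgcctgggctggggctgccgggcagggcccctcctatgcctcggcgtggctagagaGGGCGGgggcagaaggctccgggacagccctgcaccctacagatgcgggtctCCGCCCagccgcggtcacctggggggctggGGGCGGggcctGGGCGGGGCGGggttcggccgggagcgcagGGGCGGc

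Motifs were searched on both strands of windows that ran from 250 bases before to 50 bases after the start, and all 10 genes had such a window. The NOX1 window held 5 matches to GATAA or GATAG, the core letters read by GATA factors, at positions -137, -100, -6, 7 and 18 from the start. At least 1 match was present in 35.4% of the 35116 windows of the table and at least 5 in 0.171%. It also held 2 matches to TTTAT, the core of CDX sites, of which the one at -138 overlaps the GATA match at -137. Of all windows 34.9% held this motif at least once and 14.4% at least 2 times. GC made up 40.3% of the NOX1 window, 60.3% of the DUOX2 window and 72.7% of the CYBA window, against a median of 58.7%. The CYBA window held 6 matches to the GC box GGGCGG, found at least once in 45% and at least 6 times in 2.86% of windows. Among the other members' windows CYBB held 2 GATA matches, and NOX5, NOXA1 and 1 of the 3 NOX4 windows held 1 each. The windows of NOX3, NOXO1, CYBA, DUOX1 and DUOX2 held none. These matches are letters in a window and were not measured as bound sites. The shares are over all windows of the table, and windows of like GC content were not set apart.

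NOX1, the superoxide-producing catalytic subunit, had 4 features, which span chrX:99984968-100015990 on hg18. The brightest record, BC075015, read 369.1, 505.2 and 563.9 in shNon and 45.2, 75.0 and 58.9 in shASPP2. Record NM_013954 read 415.1, 340.6 and 353.2 in shNon and 48.8, 55.3 and 52.9 in shASPP2. Record NM_013955 read 361.4, 403.3 and 413.3 in shNon and 51.5, 64.6 and 43.5 in shASPP2. In all 3 records every shNon array stood far above the limit and every shASPP2 array was lower than every shNon array. The shASPP2 arrays were mostly under the limit, with 1 array above it for BC075015, none for NM_013954 and 1 for NM_013955.

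BC075015 averaged 479.4 ± 99.9 over the shNon arrays and 59.7 ± 14.9 over the shASPP2 arrays (SD, n = 3), a log2 difference of -3.01 (SE 0.259, 95% interval -3.62 to -2.41). For NM_013954 the difference was -2.82 (SE 0.175) from means of 369.6 ± 39.8 and 52.4 ± 3.31, and for NM_013955 it was -2.90 (SE 0.204) from means of 392.7 ± 27.6 and 53.2 ± 10.6. Because shASPP2 was dim in all 3 records, the fold is a lower bound, taken as the shNon mean against the mean, per shASPP2 array, of the higher of the limit and the measured value. By that bound the estimated fold decrease of NOX1 was at least 7.19 for BC075015, at least 6.01 for NM_013954 and at least 6.28 for NM_013955. The bound allows for readings under the limit only and leaves out the spread between arrays, which the intervals give. In bulk RNA, fewer cells with a transcript and less of it per cell cannot be told apart.

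The remaining NOX1 record, NM_007052, spans nearly the same interval of the X chromosome and was dim in both groups. It read 53.6, 37.1 and 28.4 in shNon and 24.4, 21.8 and 25.2 in shASPP2. The shASPP2 arrays were again all lower, all of them under the random probes, and the log2 difference of -0.69 (SE 0.255) lies between readings that are both at background. Where in the transcript the probes of each record lie was not analysed here.

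NOXO1, the organiser that brings NOX1 to the membrane complex, had 2 records (chr16:1968918-1971441 for the longer one, hg18), and both were close to the limit or under it. Record NM_144603 read 130.5, 44.7 and 33.7 in shNon and 69.8, 75.8 and 43.6 in shASPP2. A single shNon array carried the shNon mean of 69.6 ± 53, which is 1.07 times the limit, and the groups overlapped with a log2 difference of 0.08 (SE 0.5, 95% interval -1.09 to 1.25). Record NM_172167 was dim, with 47.5, 49.4 and 20 in shNon and 35.9, 21.7 and 44.8 in shASPP2 and a difference of -0.14 (SE 0.418).

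NOXA1, the activator subunit of NOX1, had 1 record (chr9:139437667-139448679, hg18), which read 45.9, 37.2 and 40.9 in shNon and 30.6, 28.1 and 41.1 in shASPP2. It was dim in both groups, which overlapped, and the difference was -0.33 (SE 0.209). NOXO1 and NOXA1, best known as partners of NOX1, thus gave readings at or near background in the control cells, in which NOX1 itself was above it. Such readings show neither presence nor absence of either transcript.

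CYBA, whose product p22phox is shared by NOX1 to NOX4, stood far above the limit on every array. Record NM_000101 (chr16:87237197-87244958, hg18) read 6307.1, 5830.9 and 5476.3 in shNon and 6586.3, 6565.8 and 6909.2 in shASPP2. The shASPP2 arrays were all higher, by a small amount, with means of 5871.4 ± 416.9 and 6687.1 ± 192.6 and a difference of 0.19 (SE 0.165, 95% interval -0.20 to 0.57). Record BC006465 read 4618.1, 6384.7 and 5709.1 in shNon and 5607.5, 6691.5 and 5224.3 in shASPP2. There the groups overlapped, and the difference was 0.07 (SE 0.203).

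CYBB, the phagocyte catalytic subunit (chrX:37524263-37557658, hg18), was dim in both groups. Record NM_000397 read 24.6, 19.5 and 33.1 in shNon and 51.6, 67.1 and 30.6 in shASPP2, and record BC032720 read 28.5, 26.8 and 45.3 in shNon and 37.2, 23.2 and 41.8 in shASPP2. NM_000397 gave the highest positive difference of the set, 0.91 (SE 0.334), from overlapping groups in which 1 shASPP2 array was above the limit. BC032720 gave 0.02 (SE 0.304). The summed level of 12 leukocyte markers, dim ones included, was 3795.7 to 5230.6 in shNon and 4992.2 to 5352.0 in shASPP2. Of these 12, 6 were above the limit in at least 1 group, namely ITGAM, ITGB2, LYZ, CD68, FCGR3A and CD79A. Among the others PTPRC, CD14, CSF1R, MPO and CD3E were dim in both groups. The source of these marker readings in the cultured line and their bearing on CYBB were not tested.

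The other catalytic subunits that need p22phox were dim throughout. NOX3 (chr6:155758193-155818729, hg18), known from the inner ear, read 40.9, 27.0 and 34.0 in shNon and 26.9, 46.9 and 37.7 in shASPP2, with overlapping groups and a difference of 0.11 (SE 0.265). NOX4, a constitutively active oxidase that releases hydrogen peroxide and is known from kidney and fibroblasts, had 4 records (chr11:88699159-88864301 for NM_016931, hg18), and no array reached the limit in any of them. Its brightest record, BC051371, read 40.8, 39.7 and 23.1 in shNon and 38.4, 47.3 and 25.1 in shASPP2, a difference of 0.09 (SE 0.32). NM_016931 and AJ704727 differed by 0.14 (SE 0.209) and 0.00. BC040105 read 32.0, 50.1 and 37.6 in shNon and 20.3, 18.8 and 33.2 in shASPP2, a difference of -0.75 (SE 0.283) between overlapping groups. The 4 NOX4 records thus gave differences of both signs at readings near the random probes.

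NOX5, a catalytic subunit with calcium-binding EF hands, was dim in 2 records (chr15:67009917-67136127 for the longer one, hg18). Record AK074071 read 46.2, 45.7 and 44.2 in shNon and 38.0, 36.2 and 35.1 in shASPP2. The spread within each group was small, the shASPP2 arrays were all lower, and the difference was -0.32 (SE 0.16). Record NM_024505 read 23.0, 31.5 and 84.9 in shNon and 46.6, 27.8 and 36.8 in shASPP2, so that 1 shNon array stood above the limit and the groups overlapped (difference -0.12, SE 0.473).

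DUOX1 and DUOX2, the dual oxidases that release hydrogen peroxide, lie side by side on chromosome 15 with 15832 bases between them. DUOX2 (chr15:43172143-43193651, hg18) read 103.2, 296.4 and 247.8 in shNon and 103.4, 126.1 and 80.9 in shASPP2 for record NM_014080. The first shNon array was as low as the shASPP2 arrays while the other two were higher, so the groups overlapped. The means were 215.8 ± 100.5 and 103.5 ± 22.6, and the difference was -0.95 (SE 0.404, 95% interval -1.89 to -0.00).

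The second DUOX2 record, AF230496, read 95.4, 117.0 and 154.5 in shNon and 51.9, 65.9 and 45.6 in shASPP2. Here the groups did not overlap, and the difference was -1.16 (SE 0.245, 95% interval -1.73 to -0.58). Because shASPP2 was dim, the estimated fold decrease is given as at least 1.91, a bound that again leaves out the spread between arrays. DUOX1 (chr15:43209483-43245066, hg18), measured by 1 record, read 275.2, 272.2 and 450.4 in shNon and 189.8, 271.4 and 213.3 in shASPP2. The groups were separated only by the step from 272.2 to 271.4, with a difference of -0.54 (SE 0.261, 95% interval -1.15 to 0.07) and a level of 68.8% of shNon. Both dual oxidases were lower in shASPP2 and neither passed the limma threshold.

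Over all features the arrays of the 2 groups did not overlap in 18.6%. Among the 21 oxidase features this was so for 8, namely the 4 of NOX1 and 1 each of NOX5, CYBA, DUOX1 and DUOX2, and nothing is read from that count either. In all, 12 features were lower and 9 higher in shASPP2. The median difference was -2.86 over the NOX1 features, 0.00 over the 17 others and 0.01 over all features of the array. The 12 oxidase features dim in both groups read between 18.8 and 84.9 and differed by -0.75 to 0.91, with a median of -0.06. The 16707 features of the array that were dim in both groups differed by -1.48 to 1.32, with a median of -0.05. Nearest to the limit of 61.2 in shASPP2 stood NOXO1 at 63.1 above it and NOX1 record BC075015 at 59.7 under it. In shNon NOXO1 at 69.6 was the nearest above the limit of 65.1, and the next feature under it was NOX5 at 46.4.

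**Figure D2:**
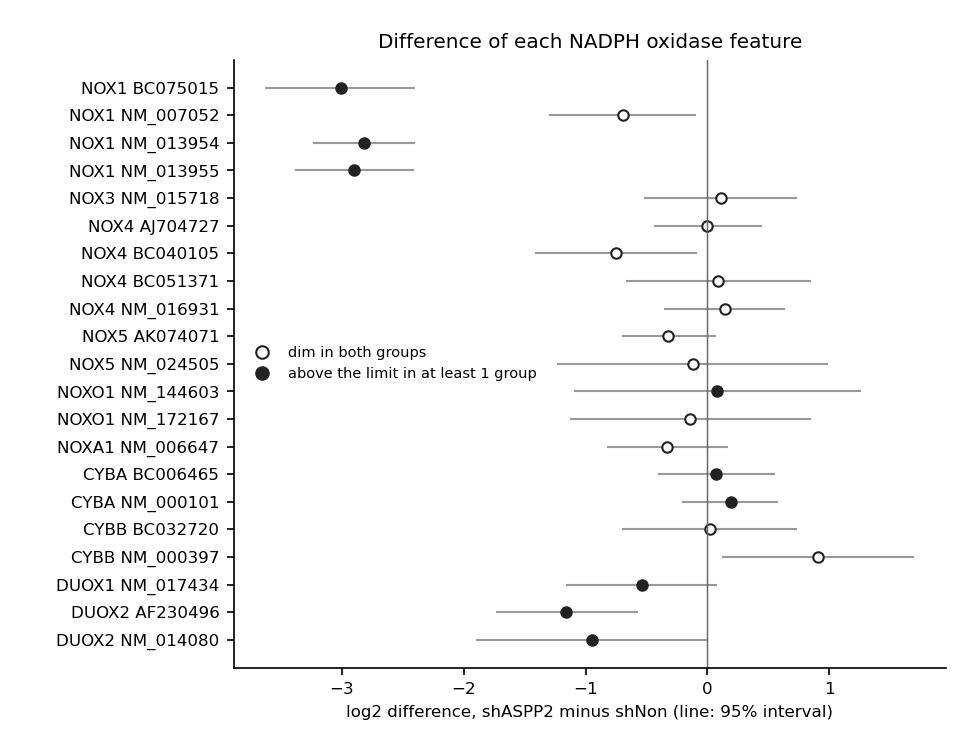
Difference of log2 intensity, shASPP2 minus shNon, for each of the 21 oxidase features (points, open where both groups were dim; lines are 95% intervals of the limma fit on 3 arrays per group). NOX1 was chosen for its decrease in this comparison. Its 3 features above the limit lie at -3.01, -2.90 and -2.82, apart from all other features of the set, of which DUOX2 reaches -1.16.

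Genes of proteins that the oxidases assemble with made up the first companion list. None of the 15 assembly partners passed the threshold in limma. An unadjusted p under 0.05 was reached by 2 of them, against 5129 of the 45033 features of the array, which is also the background for the unadjusted counts of the other lists. Of the 15 genes 12 were above the limit, and the median difference was 0.02. By the brightest record of each gene, the largest differences among them were in CYBC1, the chaperone of the NOX2 complex, and in RAC2, a Rac GTPase. CYBC1 read 159.2, 137.9 and 228.0 in shNon and 275.8, 320.0 and 224.5 in shASPP2, a difference of 0.66 (SE 0.249, limma adjusted p = 0.387) between overlapping groups. RAC2 read 2041.2, 1979.1 and 2388.8 in shNon and 1759.2, 1430.5 and 1512.4 in shASPP2, all lower, with a difference of -0.45 (SE 0.182, limma adjusted p = 0.417). SH3PXD2A, a scaffold related to the organiser p47phox, differed by -0.30 (SE 0.197, limma adjusted p = 0.608), and its 3 other records by -0.02 to 0.26.

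Further partners are named for their roles, after their values were seen. RAC1, the Rac isoform used by NOX1, read 11922.9, 10165.4 and 11453.8 in shNon and 10816.0, 11928.5 and 9629.1 in shASPP2, with a difference of -0.05. NCF4, which encodes the phagocyte subunit p40phox, was dim in both groups. NCF1, which encodes p47phox, differed by 0.37 with overlapping groups in its brightest record, and its 5 other records differed by 0.02 to 1.23. The highest of these, XM_933287, read 29.2, 35.4 and 27.6 in shNon, which was dim, and 66.5, 51.6 and 106.9 in shASPP2, all higher (difference 1.23, SE 0.287, limma adjusted p = 0.216). The NCF1 readings are uncertain because near-identical copies of the gene lie beside it. DUOXA2, the maturation factor of DUOX2, starts 312 bases from it and read 127.9, 66.8 and 82.0 in shNon and 78.4, 134.8 and 58.2 in shASPP2. Its groups overlapped (difference -0.06, SE 0.366), as did those of DUOX2 record NM_014080. DUOXA1, 117 bases from DUOX1, was dim in both groups.

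The enzymes that remove superoxide and hydrogen peroxide were nearly all measurable, 19 of 20 above the limit, and none passed the threshold in limma (2 at an unadjusted p under 0.05, median difference 0.04). SOD3, the extracellular superoxide dismutase, read 79.6, 93.9 and 135.7 in shNon and 152.4, 175.3 and 273.4 in shASPP2, all higher (difference 0.95, SE 0.296, limma adjusted p = 0.315), and its other record differed by 0.93. GPX2, the glutathione peroxidase of gut epithelium, read 25053.8, 22930.6 and 26287.7 in shNon and 16409.7, 20102.8 and 16754.1 in shASPP2, all lower (difference -0.48, SE 0.177, limma adjusted p = 0.376). Among the settings tried it passed the threshold only with the trended and robust variance prior, and its other record differed by -0.35. PRDX1, a peroxiredoxin, differed by 0.40 (SE 0.184, limma adjusted p = 0.469), and its other record by 0.27.

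The enzymes that supply NADPH, the electron donor of the oxidases, or that act in the same pathways gave a median difference of 0.07. Of these 14 of 15 were above the limit, none passed the threshold in limma and 1 reached an unadjusted p under 0.05. The smallest p-values belonged to MTHFD1L, a mitochondrial folate enzyme (difference 0.44, SE 0.188, limma adjusted p = 0.436), TALDO1, the transaldolase of the pentose phosphate pathway (0.42, SE 0.235, adjusted p = 0.549), and ME1, the cytosolic malic enzyme (0.31, SE 0.174, adjusted p = 0.552). The other record differed by 0.01 for MTHFD1L, 0.26 for TALDO1 and 0.38 for ME1.

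Among 19 transcription factors reported at NADPH oxidase promoters 14 were above the limit, none passed the threshold in limma (1 at an unadjusted p under 0.05) and the median difference was 0.07. CEBPB, a basic leucine zipper factor, read 520.3, 581.5 and 700.8 in shNon and 959.1, 1195.5 and 882.1 in shASPP2, all higher (difference 0.75, SE 0.206, limma adjusted p = 0.268), and among the settings tried it passed only with the trended and robust variance prior. JUN differed by 0.46 (SE 0.209, limma adjusted p = 0.469) and E2F1 by 0.47 (SE 0.222, limma adjusted p = 0.479). The factors whose letters were searched in the promoters are given after their values were seen. GATA6 read 348.2, 464.8 and 436.4 in shNon and 433.1, 415.6 and 352.2 in shASPP2, and CDX2 read 279.6, 362.4 and 578.5 in shNon and 316.1, 373.9 and 430.8 in shASPP2. Both overlapped between the groups, with differences of -0.05 and -0.07, and GATA4 differed by 0.06, while GATA5 and CDX1 were dim.

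**Figure D3:**
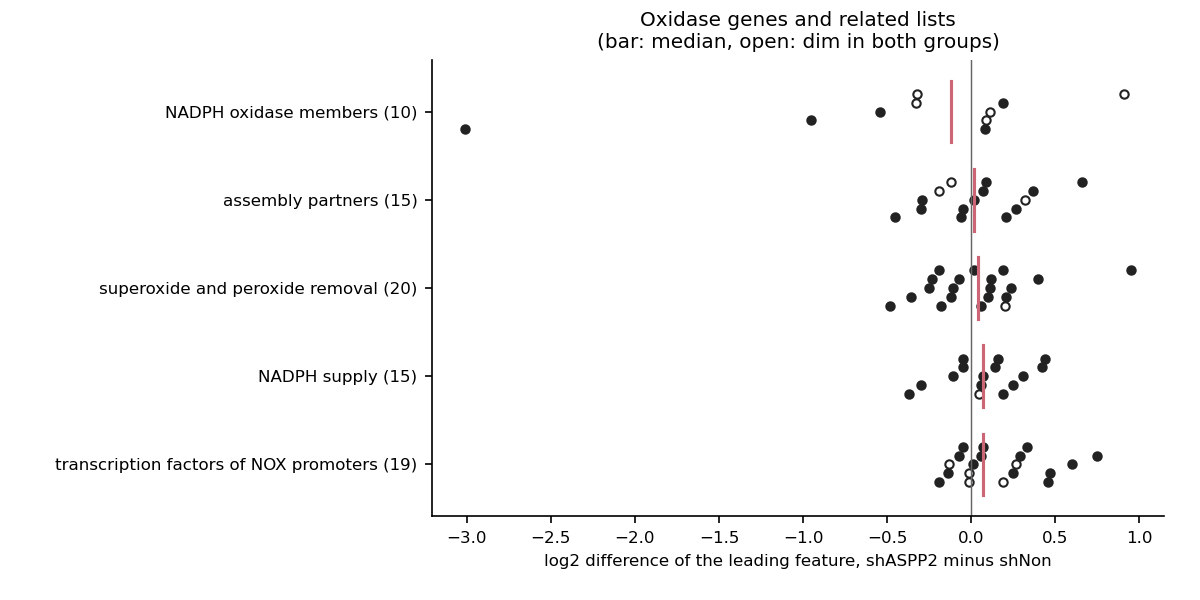
Log2 difference, shASPP2 minus shNon, of the brightest feature of each gene in 5 sets (points, open where both groups were dim; red bars are medians; the number of genes stands in brackets). NOX1, chosen for its decrease in this comparison, lies at -3.01, outside the span of the 4 companion lists, whose genes lie between -0.48 and 0.95.

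Genes within 500 kb of NOX1 and of the DUOX pair were looked at as values without a test. Of 17 other genes around NOX1, 9 were above the limit, the median difference was 0.03 and the range ran from -0.46 in TSPAN6 to 1.01 in YWHAQP8, a pseudogene. CSTF2, a cleavage stimulation factor that lies at -2.41 kb from NOX1, had means of 3127.3 and 2829.4 and a difference of -0.15 (SE 0.172). Around the DUOX pair 13 of 18 other genes were above the limit, with a median of -0.08. The lowest difference there was in SLC28A2, a nucleoside transporter 86.7 kb away, which had means of 2185.2 and 967.4 (difference -1.18, SE 0.159). The highest was in SHF, at 1.00, with a shNon mean of 37.1 that was dim.

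**Figure D4:**
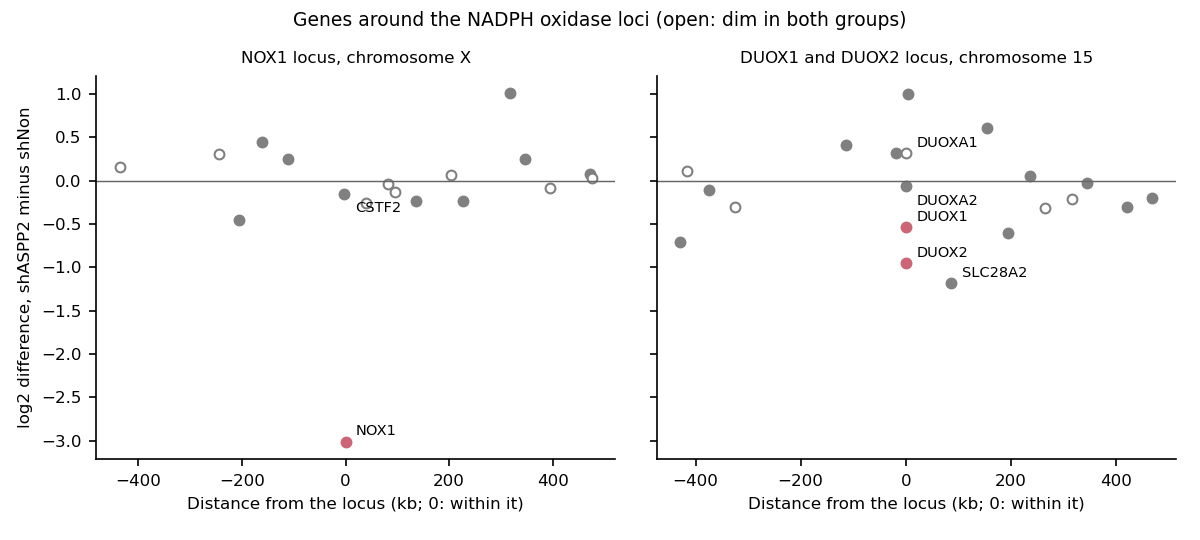
Log2 difference, shASPP2 minus shNon, of genes against their distance in kb from the NOX1 locus (left) and the DUOX1 and DUOX2 locus (right); red points are oxidase genes, grey points other genes, open where both groups were dim. NOX1, chosen for its decrease in this comparison, lies at -3.01, and its 17 neighbours lie between -0.46 and 1.01. DUOX1 and DUOX2 lie within the span of their neighbours.

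The genes whose readings ran most like those of NOX1 were found by the root mean square difference of log2 intensity over the 6 arrays after centring each gene, over 19594 named genes. The closest were ADH1C at 0.314, CYP26B1 at 0.319, FGG at 0.359, ADH1A at 0.449 and PTGS1 at 0.469. ADH1C and ADH1A encode alcohol dehydrogenases, CYP26B1 a retinoic acid hydroxylase, FGG the fibrinogen gamma chain and PTGS1 cyclooxygenase-1. ADH1C read 5082.5, 5222.5 and 6747.5 in shNon and 552.7, 519.4 and 618.1 in shASPP2, well above the limit in both groups. For comparison, the NOX1 records NM_013955 and NM_013954 lay at 0.228 and 0.325 from BC075015, and the dim record NM_007052 at 1.27. Of the other oxidase genes DUOX2 was the closest, at 1.1 and place 212, followed by DUOX1 at 1.25 and place 943, and CYBB was the farthest at 2.01. The distance was not scaled, so it largely follows the difference between the groups and does not measure shared variation within them.

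The NOX1 difference kept its sign and stayed within 1 SD under all 16 other settings, between -3.19 and -2.83, whereas its call depended on the arrays used. Some of the settings counted here and below cannot change a difference and are no check on it. They are the series value table, the removal of features, the variance prior and the replicate block. Where the groups do not overlap, leaving out 1 array cannot change the sign either. This holds for the brightest records of NOX1, DUOX1 and CYBA. With any 1 shASPP2 array left out, no feature of the array passed the threshold, and without shNon array 2 only NM_013954 of NOX1 did. DUOX1, DUOX2 and CYBA kept their sign under all 16 settings, at -0.68 to -0.30, -1.41 to -0.65 and 0.13 to 0.24. NOXO1 changed sign in 7 of 15, NOX4 in 4 of 14, NOX3 in 3 of 14 and CYBB in 1 of 14, and no direction is given for these. The change of CYBB came only with a floor at the limit, and CYBB lay between 0.47 and 1.23 otherwise. For NOX3 and NOX4 the floor gave -0.09, counted here as a change of sign. That value is the gap between the limits of the groups and no reading of the genes.

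**Figure D5:**
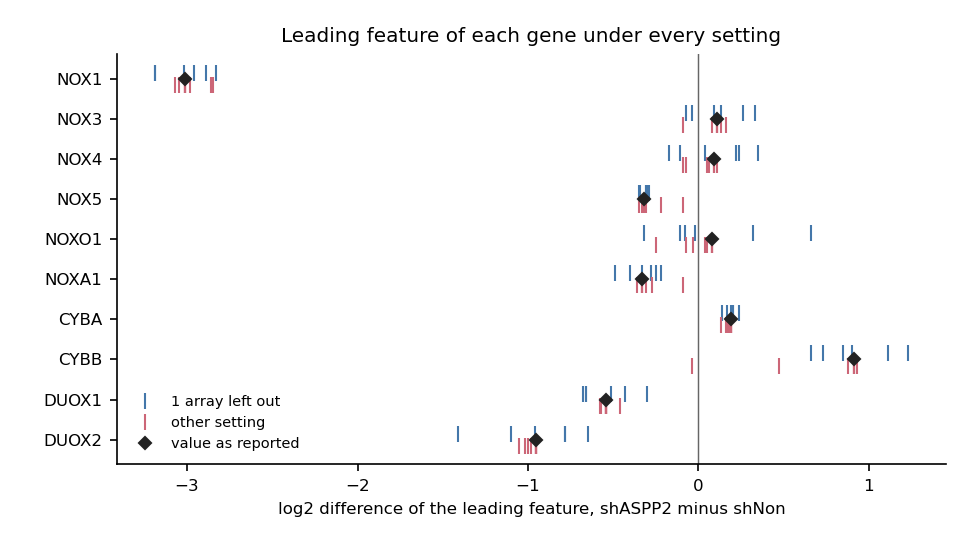
Log2 difference, shASPP2 minus shNon, of the brightest feature of each oxidase gene as reported (diamonds), with 1 array left out (blue ticks) and under the other settings (red ticks). NOX1 spans -3.19 to -2.83, while NOXO1 spans -0.32 to 0.66 and lies on both sides of 0.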

How the data were processed

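Gene expression was measured on 6 1-colour arrays, 3 per group. The authors deposited intensity values summarised by RMA, a method that corrects background, equalises arrays and averages the probes of a feature, per the submitters' processing notes; version and settings: not given in the sources used here. The series value table held the same values. The deposited annotation gives hg18 positions. Symbols were updated through a RefSeq gene table (38916 features by gene identifier and 78 by accession), 3954 kept the file's name and 2085 had none. Intensities were taken as log2 without further scaling and fitted with lmFit and eBayes (limma 3.58.1, R 4.3.3), group as the only term, and p-values were adjusted by Benjamini-Hochberg over all 45033 features. The script was tested on simulated data.

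The members and all lists were chosen with earlier results of these data known. A gene is represented by its feature with the highest mean log2 intensity. Named were all member features, TP53BP2, in each list the called genes and the 3 with the smallest p that were not dim in both groups, and the 5 genes most like NOX1. The other settings were array weights, a replicate block, the series value table, scaling by cyclic loess or by array medians, removal of dim or of below-median features, a trended robust variance prior and leaving out each array. For single genes a floor at the limit and the median over features were added. P-values measure the spread between these cultures. Values of some genes of the lists are not reported here.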

Additional observations from a re-analysis of the deposited data

How the results depend on the processing

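Of all features 62 passed an adjusted p of 0.05 in limma, 3 of them of NOX1. The count was 136 with features dim in both groups removed and 405 with features below the median level removed, where fewer features were tested, and 952 with trend and robust variance. In each of these the same 3 NOX1 features were called. Trend and robust variance called 1 gene each in the list of superoxide and peroxide removal (GPX2) and in that of transcription factors (CEBPB). With a replicate block 0 features and 0 oxidase features passed (4212 at an unadjusted p under 0.05). Deviations of same-numbered arrays correlated at 0.0561, -0.0756 and -0.126, so the numbers are not taken to pair the samples. With 1 array left out, between 0 and 17 features and between 0 and 3 oxidase features passed. The counts were 17 features without shNon array 1, 4 without shNon array 2 and 17 without shNon array 3. They were 0 without any 1 shASPP2 array, at 3317 to 3817 features with an unadjusted p under 0.05; the cause was not tested. A floor at the limit brought CYBB from 0.91 to -0.04, NOX5 from -0.32 to -0.09 and NOXA1 from -0.33 to -0.09. Every array of these NOX5 and NOXA1 records was under the limit, so -0.09 is only the gap between the limits of the groups. The same gap enters the CYBB value, where 1 shASPP2 array was above the limit. The median over records gave NOX5 -0.22. Signal over background is 1 limit: 12 of the 21 features were dim in both groups, and their differences show neither presence nor absence of a transcript.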
